A study of Homo sapiens with 32 samples.

Results

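The genes described here are SEMA3A and 9 related genes: the secreted semaphorins SEMA3C and SEMA3F, the neuropilin co-receptors NRP1 and NRP2, and the plexin receptors PLXNA1, PLXNA2, PLXNA3, PLXNB2 and PLXND1. They are 10 of the 60660 gene rows of a count table from HCT116, a human colorectal carcinoma cell line. SEMA3A was chosen because its level is low in the IGF2BP3 knockout clones and in clone F6, so its levels by line are given as a description with no test. The other 9 were chosen as its family and receptors. Poly(A)-selected RNA was counted per gene in 32 libraries, which fall into 6 groups: parental cells, IGF2BP3 knockout and IGF2BP2 knockout, each in DMSO or tunicamycin. All lines, the controls included, carry Tet-OsTIR1-PURO, an OsTIR1 transgene under a doxycycline-inducible promoter. Parental cells and IGF2BP3 knockout clones received tunicamycin at 5 µg/mL for 4 h, with DMSO at 1:1000 as the control, and the labels do not state the dose or time for the IGF2BP2 knockout clones.

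Each knockout is represented by 3 clones grown from single sorted cells, A3, D12 and E4 for IGF2BP3 and B7, F6 and G6 for IGF2BP2, with 2 libraries per clone and treatment. The parental groups hold 2 parental samples with 2 libraries per treatment. The labels do not say that libraries of one line came from separate cultures, so a p-value between libraries may measure technical spread, and the clone is the unit behind any difference between genotypes. The control libraries of clone G6 are called control in their title and tunicamycin in their treatment characteristic, and they were placed by title.

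Class 3 semaphorins are secreted guidance proteins, first known for repelling growing axons, that also act on endothelial and tumour cells. Most of them bind a neuropilin, which has a short tail with little signalling of its own, and the neuropilin passes the signal to a plexin. Plexins act inside the cell on small GTPases and so on the cytoskeleton and on adhesion. SEMA3A uses NRP1 with A-type plexins, SEMA3F prefers NRP2, and PLXNB2 is a receptor for class 4 semaphorins. Tunicamycin stops the attachment of N-linked sugars to new proteins, which then misfold in the endoplasmic reticulum (ER), and cells answer with the unfolded protein response (UPR).

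The clones were made with Cas9 and 4 guides. They are shown because SEMA3A differed between clones that share a guide; the capitals mark the PAM, the bases next to the target that Cas9 requires.
Guide of IGF2BP3 knockout clones A3 and E4: tggcaccgactgatagagctGGG
Guide of IGF2BP3 knockout clone D12: acgcgtagccagtcttcaccAGG
Guide of IGF2BP2 knockout clones B7 and F6: gagctgccggaggtcgtcggCGG
Guide of IGF2BP2 knockout clone G6: aggcgtagccggacttcagcAGG
Each guide matched transcripts of its target with 0 mismatches. IGF2BP3 lies at chr7:23310209-23470467 and IGF2BP2 at chr3:185643739-185825056, both on the minus strand of GRCh38 in GENCODE release 29. Across the 7 annotated transcripts of SEMA3A, the closest site next to an NGG PAM had 9 mismatches to the guide of A3 and E4, 10 to that of D12, 9 to that of B7 and F6, and 9 to that of G6. For the 14 transcripts of NRP1 the counts were 8, 9, 8 and 8. Introns and promoters were not searched.

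RefSeq promoter windows on GRCh38.p14, from 250 bases before to 50 bases after a start, were found for 8 of the 10 genes (11 windows). Both strands were searched for 3 motifs of the UPR: the ER stress response element (ERSE; CCAAT, then 9 bases of any kind, then CCACG), a core of the ATF4/CHOP composite site (TGATGNAA) and a core of the UPR element (TGACGTGG); the 3 searches do not exclude overlaps. Of all 35116 windows, 0.0769% held the ERSE, 3.62% the composite core and 0.729% the UPR element core. Among the 11 windows, 1 held a match, a composite core in an upstream SEMA3C window on the minus strand of chromosome 7. The 250 bases before that start are shown with the match in capitals, beside those before the PLXNA1 start, since PLXNA1 had the largest fall in tunicamycin of the members tested in each genotype.
SEMA3C, chr7:80922390-80922639, minus strand: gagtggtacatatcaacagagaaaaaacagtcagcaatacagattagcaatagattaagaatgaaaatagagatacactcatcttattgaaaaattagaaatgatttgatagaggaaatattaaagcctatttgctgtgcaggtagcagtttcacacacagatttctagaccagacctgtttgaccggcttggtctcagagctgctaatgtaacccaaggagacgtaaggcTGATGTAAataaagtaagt
PLXNA1, chr3:126982865-126983114, plus strand: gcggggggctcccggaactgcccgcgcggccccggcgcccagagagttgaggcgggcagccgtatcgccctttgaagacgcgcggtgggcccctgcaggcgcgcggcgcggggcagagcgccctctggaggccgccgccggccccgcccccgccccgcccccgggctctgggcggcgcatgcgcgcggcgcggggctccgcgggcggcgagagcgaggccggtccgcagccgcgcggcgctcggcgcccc
In these 250 bases G and C made up 36.4% of the SEMA3C sequence and 84.4% of the PLXNA1 sequence, with 2 and 46 CpG dinucleotides. The other SEMA3C window held no match, and the 250 bases before its start were 77.6% G and C with 39 CpG dinucleotides.

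Total counts ran from 16651438 to 24913021 per library. Levels are in CPM, the count divided by the library total, scaled by the TMM method over the 32 libraries to allow for differences in composition. IGF2BP3 was at 70.1 to 82.8 CPM in the 4 parental DMSO libraries and at 18.7 to 41.8 CPM in the 6 IGF2BP3 knockout DMSO libraries, with D12 highest. IGF2BP2 was at 159 to 195 CPM in the parental and 81.3 to 92.8 CPM in the IGF2BP2 knockout DMSO libraries, so both targeted transcripts were lower in their knockout but still counted. The UPR target HSPA5 was higher in tunicamycin in 16 of 16 pairs of libraries matched by line and replicate number, by 3.27 ± 0.20 log2 units (SD, n = 16), clone G6 included. All 6 markers of colon epithelium were above a mean of 1 CPM, as were 1 of 5 fibroblast markers, 0 of 3 endothelial markers and 1 of 4 neuronal markers. The summed neuronal list, nearly all of it SYT1, was at 80.4 to 84.7 CPM in parental and 50.8 to 76.1 CPM in IGF2BP3 knockout DMSO libraries, and its part in the results was not tested.

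SEMA3A, the ligand that collapses growth cones through NRP1 and A-type plexins, lies at chr7:83955777-84492724 on the minus strand. It was at 37.2, 37.6, 53.0 and 56.1 CPM in the parental DMSO libraries and at 33.5, 41.0, 42.9 and 51.7 CPM in tunicamycin. In the IGF2BP3 knockout it was at 1.35 and 1.5 CPM in A3, 0.806 and 0.891 CPM in D12 and 2.71 and 3.1 CPM in E4 in DMSO. Every IGF2BP3 knockout library was thus below every parental library, and the 3 clones did not overlap one another. D12, the clone with the most IGF2BP3 transcript left (41.1 and 41.8 CPM in DMSO), had the lowest SEMA3A. D12 was made with another guide than A3 and E4, and these counts do not give the IGF2BP3 protein left. In DMSO, IGF2BP3 was at 61.9 and 69.1 CPM in B7 and at 65.3 and 72.1 CPM in F6. Clone G6 had 88.6 and 101 CPM. Of the 8 lines, G6 thus had the highest IGF2BP3 and also the highest SEMA3A. A link between the levels of IGF2BP3 and SEMA3A was not tested.

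In the IGF2BP2 knockout the clones lay on both sides of the parental cells. SEMA3A was at 77.7 and 85.9 CPM in B7, 5.62 and 6.91 CPM in F6, and 129 and 140 CPM in G6 in DMSO. Clones B7 and F6 share a guide, and their DMSO means, 81.8 and 6.26 CPM, stood on opposite sides of the parental mean of 46.0 CPM. The order over both treatments was G6, B7, the 2 parental samples, F6, E4, A3 and D12, and the only neighbours in that order whose libraries overlapped were the 2 parental samples.

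Relative to parental cells, the fitted log2 difference of the IGF2BP3 knockout was -4.72 (SE 0.243) in DMSO and -4.62 (SE 0.246) in tunicamycin. In DMSO this left A3 at 3.11%, D12 at 1.85% and E4 at 6.32% of the parental mean. Without D12 the DMSO difference was -4.40 and without E4 it was -5.32, and it was -4.91 within replicate number 1 and -4.49 within replicate number 2. The IGF2BP2 knockout gave 0.69 (SE 0.690) in DMSO and 0.85 (SE 0.716) in tunicamycin, means of clones that went opposite ways. Without G6 these became -0.06 and 0.05. The difference between lines took 99.6% of the variance of log2 CPM of SEMA3A over the 32 libraries.

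**Figure D1:**
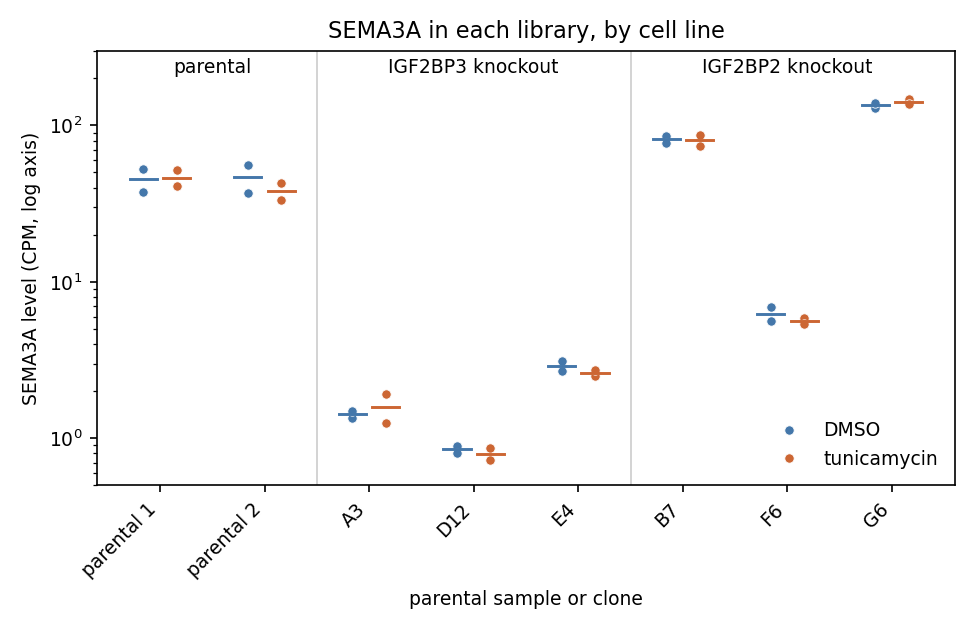
SEMA3A level in CPM on a log axis for each library (points) with the mean of the 2 libraries (bars), by parental sample or clone, in DMSO (blue) and tunicamycin (orange). The 3 IGF2BP3 knockout clones and clone F6 sit below both parental samples, clones B7 and G6 above them, and the treatments overlap or lie close within each line.

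No change of SEMA3A in tunicamycin passed the test. The log2 change was -0.12 (95% interval -0.43 to 0.18) in parental cells, -0.03 (-0.33 to 0.28) in the IGF2BP3 knockout and 0.00 (-0.12 to 0.12) in the IGF2BP2 knockout. The test is the quasi-likelihood one of edgeR, adjusted over all genes by Benjamini-Hochberg, as for every adjusted p here, and it gave 0.63, 0.926 and 0.993. SEMA3A was lower in tunicamycin in 11 of 16 matched pairs. In the IGF2BP3 knockout the change was -0.18 within replicate number 1 and 0.11 within replicate number 2.

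SEMA3C and SEMA3F, the other ligands, did not share the pattern of SEMA3A. SEMA3C, at chr7:80742538-80922359 on the same arm of chromosome 7, acts through both neuropilins and PLXND1. In DMSO it was at 20.4 to 24.1 CPM in parental libraries, 21.7 to 27.7 CPM in the IGF2BP3 knockout and 19.0 to 37.3 CPM in the IGF2BP2 knockout. Within the IGF2BP2 knockout, B7 (33.8 and 37.3 CPM) and F6 (29.9 and 36.4 CPM) lay above G6 (19.0 and 20.1 CPM), and the 3 clones differed (adjusted p 2.4e-05). Clones B7 and F6 were thus alike in SEMA3C and far apart in SEMA3A. Against parental cells SEMA3C did not pass the test in either knockout or treatment. Without G6, and so with B7 and F6 alone, it was 0.59 higher on the log2 scale in the IGF2BP2 knockout in DMSO (adjusted p 0.0333). Over all samples left out this DMSO difference ran from 0.21 to 0.59.

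SEMA3F, at chr3:50155045-50189075, is a ligand of NRP2. It overlaps SEMA3F-AS1 on the other strand and MIR566, and whether the counts used the strand is not given in the sources used here, so its reads are uncertain to that extent. Over the 16 DMSO libraries it ran from 8.44 to 14.7 CPM and over the 16 tunicamycin libraries from 6.18 to 11.7 CPM. It was lower in tunicamycin in 16 of 16 matched pairs, by 0.07 to 0.73 log2 units, although the ranges of the treatments overlap. The fall passed the test in parental cells (log2 change -0.37, SE 0.101, adjusted p 0.0222), the IGF2BP3 knockout (-0.38, SE 0.104, adjusted p 0.0119) and the IGF2BP2 knockout (-0.36, SE 0.0847, adjusted p 0.00372). The parental call was lost without either library number of parental sample 1 (adjusted p 0.147 and 0.102) and the IGF2BP3 knockout call without D12 (log2 change -0.23, adjusted p 0.218). Within replicate numbers 1 and 2 the changes were -0.40 and -0.33 in parental cells, -0.41 and -0.30 in the IGF2BP3 knockout, and -0.26 and -0.43 in the IGF2BP2 knockout.

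NRP1, the neuropilin through which SEMA3A and VEGF-A act, was the receptor that varied most between lines. It lies at chr10:33177492-33336262 on the minus strand and overlaps AL121748.2 on the other strand and RN7SL398P. In DMSO it was at 12.2, 13.7, 13.7 and 14.4 CPM in the parental libraries. The IGF2BP3 knockout clones had 7.29 and 7.30 CPM (A3), 3.0 and 4.89 CPM (D12) and 8.62 and 9.22 CPM (E4). All 6 of these libraries were below all 4 parental libraries.

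The IGF2BP2 knockout clones had 1.54 and 2.07 CPM (B7), 2.97 and 3.24 CPM (F6) and 10.8 and 13.6 CPM (G6) in DMSO. G6 reached into the parental range, while B7 and F6 lay below it. In the order of DMSO levels, parental sample 2 touched sample 1 and overlapped G6, and D12 overlapped F6; the other neighbours did not overlap. B7, with SEMA3A above the parental level, had the lowest NRP1 of the 8 lines.

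The IGF2BP3 knockout differed from parental cells in NRP1 in DMSO, at a log2 ratio of -1.0 (SE 0.219) with an adjusted p of 0.0328. The call was lost without A3 (adjusted p 0.0684), without any 1 parental library (0.0744 to 0.107), with counts summed per line (0.167) and with all 32 libraries in one fit (0.566). In these fits the log2 ratio was -1.07 to -0.98. Over every clone or parental library left out it ran more widely, from -1.26 to -0.74. Within replicate numbers 1 and 2 it was -1.07 and -0.95. In tunicamycin the difference was -0.93 (SE 0.243) and did not pass the test (adjusted p 0.135); it passed with the replicate number as a block (0.0352), with DESeq2 (0.0137), with no filter on low counts (0.0014) and without D12 (-0.65, 0.0489). For the IGF2BP2 knockout the differences were -1.23 (SE 0.493, adjusted p 0.983) in DMSO and -1.15 (SE 0.523, adjusted p 0.695) in tunicamycin. Without G6 they became -2.45 (adjusted p 0.00053) and -2.46 (adjusted p 0.0024). The fits without G6 rest on B7 and F6, which share a guide, and count libraries of one clone as replicates. Neither difference passed without B7 or without F6. Over all samples left out they ran from -2.45 to -0.80 in DMSO and from -2.46 to -0.70 in tunicamycin.

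Tunicamycin raised NRP1 in every genotype and in 16 of 16 matched pairs, by 0.23 to 0.76 log2 units. The log2 change was 0.43 (SE 0.0748, adjusted p 0.00206) in parental cells, 0.48 (SE 0.132, adjusted p 0.0115) in the IGF2BP3 knockout and 0.47 (SE 0.124, adjusted p 0.00723) in the IGF2BP2 knockout. Parental libraries went from 12.2 to 14.4 CPM in DMSO to 16.9 to 19.5 CPM in tunicamycin, with no overlap. The IGF2BP3 knockout call was lost without A3 (adjusted p 0.0907) or E4 (0.0649) and the IGF2BP2 knockout call without G6 (0.119) or without its control libraries (0.0922), with changes of 0.41 to 0.52. Within replicate numbers 1 and 2 the changes were 0.42 and 0.45, 0.37 and 0.59, and 0.52 and 0.48 in the same order of genotypes.

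NRP2, the neuropilin preferred by SEMA3F, was barely counted, with 255 counts in the 32 libraries together and 0.0869 to 0.837 CPM per library. PLXNA2 was likewise at 181 counts and 0.047 to 0.635 CPM. Neither gives a difference that can be read at this depth, and at least 1 of them failed the low-count filter in most comparisons. NRP2 overlaps AC007362.1 on the other strand.

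The plexins were expressed in every line, and their levels per length of exon differed widely. Over the 32 libraries PLXNB2 had a mean of 44.5 CPM per kb, PLXNA1 7.53, PLXND1 4.79 and PLXNA3 3.22, beside 4.25 for SEMA3A, 4.04 for SEMA3C, 1.99 for SEMA3F and 0.83 for NRP1. These lengths come from GENCODE release 29, which may differ from the annotation behind the counts.

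PLXNA1, an A-type plexin that pairs with NRP1 for SEMA3A, lies at chr3:126988594-127037392 and had the clearest response to tunicamycin. It was at 90.1 to 106 CPM in the 16 DMSO libraries and at 59.0 to 74.9 CPM in the 16 tunicamycin libraries, with no overlap. It fell by 0.35 to 0.75 log2 units in 16 of 16 matched pairs. The fitted changes were -0.56 (SE 0.0682, adjusted p 0.000202) in parental cells, -0.49 (SE 0.0451, adjusted p 8.42e-07) in the IGF2BP3 knockout and -0.51 (SE 0.0496, adjusted p 1.19e-06) in the IGF2BP2 knockout. Treatment took 91.0% of its variance and lines 1.97%, the reverse of SEMA3A.

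PLXND1, a receptor of SEMA3E and SEMA3C with roles in vessels, lies at chr3:129555175-129606818 and overlaps RN7SL752P on the other strand. It was at 42.2 to 64.5 CPM in DMSO and 33.5 to 50.4 CPM in tunicamycin and was lower in 16 of 16 matched pairs. The fall passed the test in parental cells (-0.37, SE 0.0553, adjusted p 0.000798), the IGF2BP3 knockout (-0.23, SE 0.0566, adjusted p 0.006) and the IGF2BP2 knockout (-0.30, SE 0.053, adjusted p 0.00034). Without D12 the IGF2BP3 knockout call was lost (-0.20, adjusted p 0.0858). In DMSO B7 was highest, at 62.2 and 64.5 CPM, with F6 at 44.4 and 47.1 CPM and G6 at 48.4 and 48.9 CPM, and the clones of this knockout differed (adjusted p 0.000196).

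PLXNB2, the most abundant plexin here, was at 294 to 313 CPM in the parental DMSO libraries and 326 to 352 CPM in those of the IGF2BP3 knockout, with no overlap. The log2 ratio was 0.16 (SE 0.0366) with an adjusted p of 0.0483, close to the threshold. It was 0.15 to 0.17 without any 1 clone or parental library, but the adjusted p then ran from 0.0809 to 0.171, so no such fit called it. The adjusted p was 0.22 with counts summed per line and 0.4 with all 32 libraries in one fit. In tunicamycin the log2 ratio was 0.16 (SE 0.0468, adjusted p 0.195, or 0.0273 with DESeq2). Clone G6 was lowest at 275 and 287 CPM in DMSO, against 336 to 355 CPM in B7 and F6, and the clones differed (adjusted p 0.00061). Tunicamycin changed PLXNB2 by -0.01, -0.01 and -0.03 log2 units in parental, IGF2BP3 knockout and IGF2BP2 knockout cells, with intervals inside -0.11 to 0.08.

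PLXNA3, another A-type plexin, was at 31.5 to 46.0 CPM in DMSO and 29 to 44 CPM in tunicamycin and overlaps LAGE3. Replicate number took 68.0% of its variance, with replicate 2 above replicate 1 in every line and treatment. It passed the test in no comparison; with the replicate number as a block its change of -0.13 in tunicamycin in the IGF2BP2 knockout passed (adjusted p 0.0214).

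**Figure D2:**
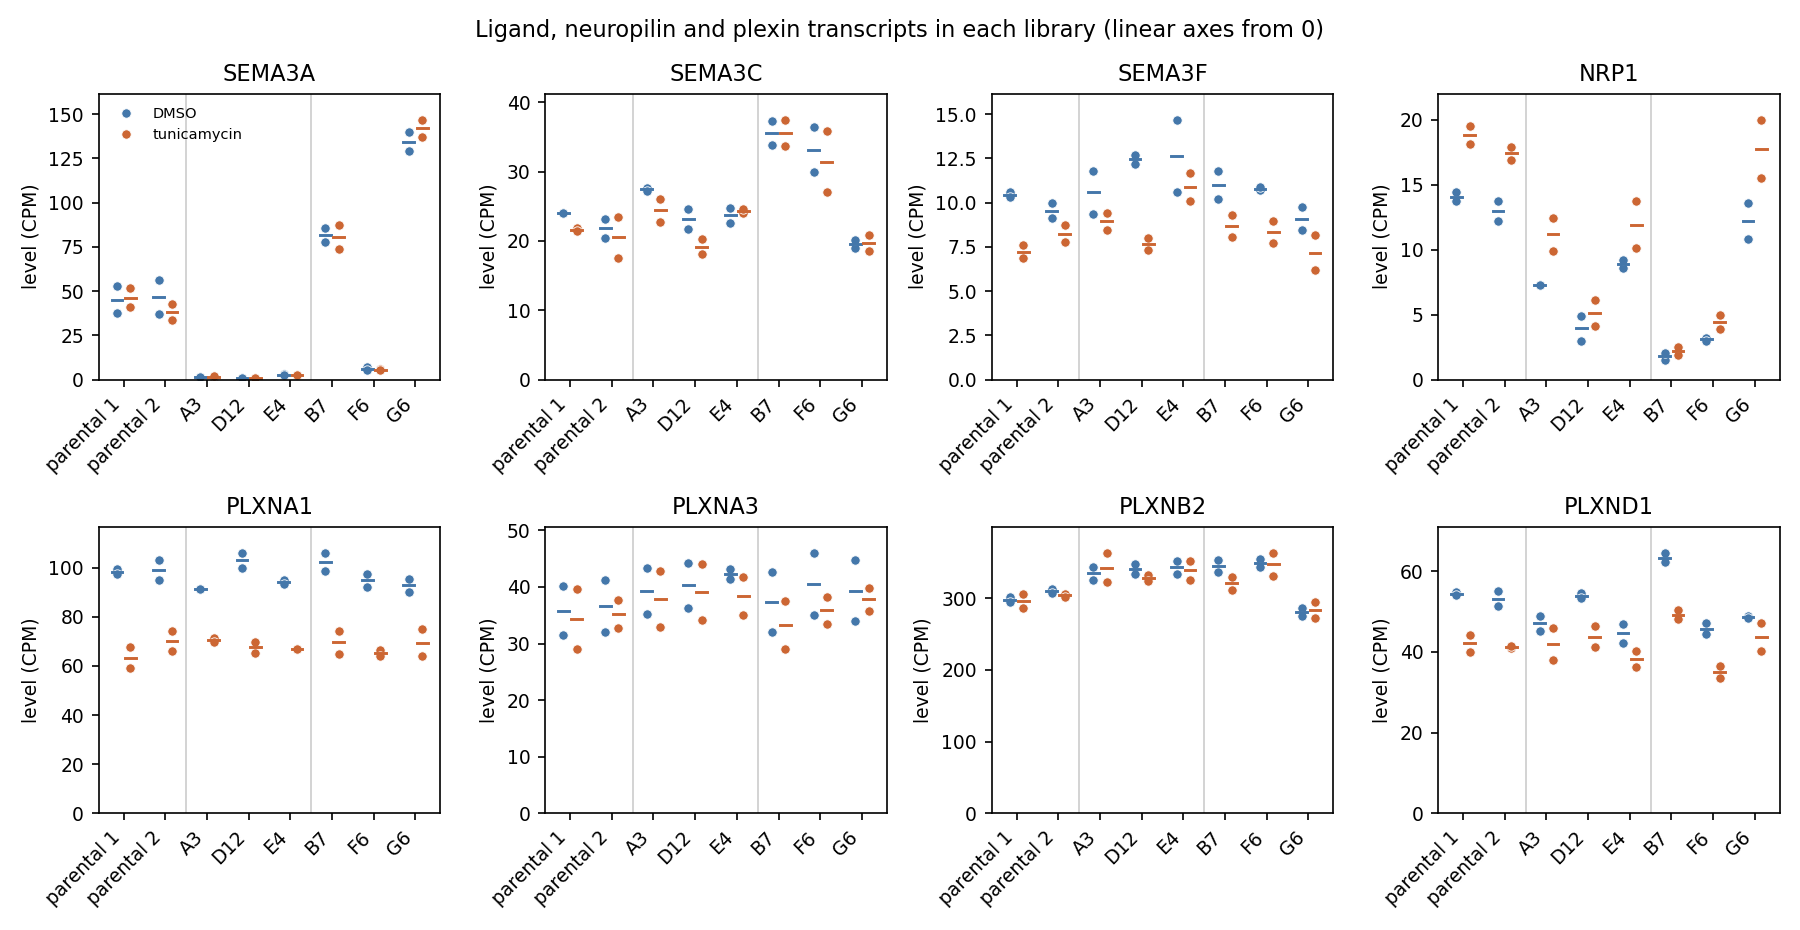
Levels in CPM on linear axes from 0 for 8 genes in each library (points) with the mean of the 2 libraries (bars), by parental sample or clone, in DMSO (blue) and tunicamycin (orange). SEMA3A and NRP1 differ most between lines, PLXNA1 is lower in tunicamycin in all 8 lines, and clone B7 joins a SEMA3A level above the parental one to the lowest NRP1.

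In counts, tunicamycin called 4 of the 8 genes tested in parental cells, where 25.9% of all genes tested were called (12.1% higher and 13.8% lower). It called 4 of 10 in the IGF2BP3 knockout, against 32% of all genes (15.3% higher, 16.8% lower), and 4 of 9 in the IGF2BP2 knockout, against 38.2% (18.2% higher, 20.1% lower). In each genotype the 4 were NRP1, higher, and SEMA3F, PLXNA1 and PLXND1, lower. Without D12 the count in the IGF2BP3 knockout was 2. The share called among so few genes is near the background in the knockouts and above it in parental cells, where NRP2 and PLXNA2 failed the filter. As the same 4 genes were called each time, these shares differ only through the number tested, and the backgrounds differ too. The median log2 change of the genes tested was -0.12, -0.05 and -0.03, against -0.01 over all genes in each genotype. No difference in response between genotypes passed the test, which does not show that the responses were equal: the interaction called 0 of 10 for the IGF2BP3 knockout and 0 of 9 for the IGF2BP2 knockout with edgeR and with DESeq2, and none of them had an unadjusted p under 0.05. Over all genes the interaction also called 0.0% for either knockout.

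**Figure D3:**
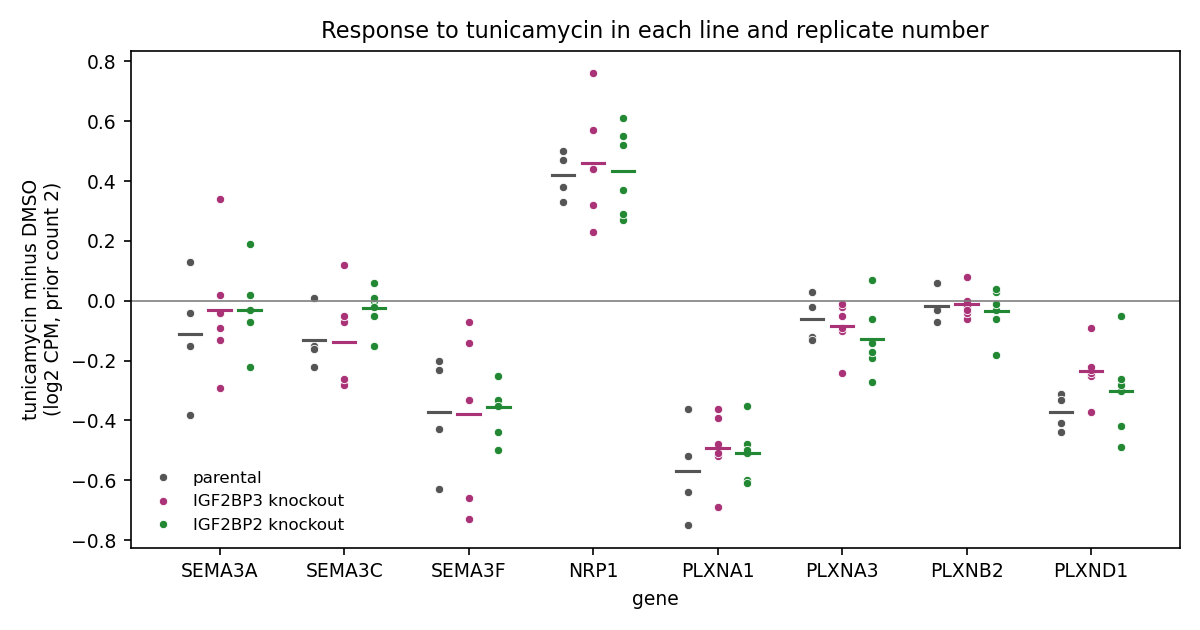
Change in tunicamycin, as log2 CPM (prior count 2) in tunicamycin minus DMSO, for each pair of libraries matched by line and replicate number (points) with the mean per genotype (bars). NRP1 is above 0 and SEMA3F, PLXNA1 and PLXND1 below 0 in all 16 pairs, while SEMA3A and SEMA3C scatter on both sides.

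Between genotypes the IGF2BP3 knockout called 2 of 7 genes in DMSO, NRP1 and PLXNB2, against 1.61% of all genes, and 0 of 8 in tunicamycin, against 0.718%. These fits count libraries of one clone as replicates. With counts summed per line, 0 of 9 were called in DMSO, against 0.284% of all genes. In tunicamycin 2 of the 8 had an unadjusted p under 0.05, and DESeq2 called 2. The IGF2BP2 knockout called 0 of 7 in DMSO, against 0.0137% of all genes, and 0 of 7 in tunicamycin, against 0.00694%; 1 and 2 of them had an unadjusted p under 0.05, and DESeq2 called 0 in both. SEMA3A is in none of these counts. The comparisons share the parental libraries. Clones of one knockout differed in 1 of 9 genes for IGF2BP3 (NRP1, adjusted p 0.000842), against 7.05% of all genes, and in 4 of 8 for IGF2BP2 (SEMA3C, NRP1, PLXNB2 and PLXND1), against 24.6%. With the replicate number as a block, SEMA3C (adjusted p 0.0403) and PLXND1 (0.0133) also differed between the IGF2BP3 knockout clones. The 2 parental samples differed in 0 of 8 genes with edgeR and with DESeq2, none with an unadjusted p under 0.05, and in 0.0% of all genes.

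The rest of the pathway was taken from 4 lists. Of 17 other semaphorins 13 were tested, and tunicamycin lowered 4 of them in parental cells, 7 in the IGF2BP3 knockout and 7 in the IGF2BP2 knockout, where 1, SEMA6A, rose (named after its value was seen). The lowered share was 30.8%, 53.8% and 53.8%, beside 13.8%, 16.8% and 20.1% of all genes tested. Their median log2 changes were -0.31, -0.33 and -0.32, beside -0.01 over all genes in each genotype. SEMA4B and SEMA4C, membrane-bound ligands of B-type plexins and others, fell by 0.85, 0.71 and 0.83 and by 0.69, 0.71 and 0.71 log2 units in parental, IGF2BP3 knockout and IGF2BP2 knockout cells (adjusted p at most 6.22e-05). SEMA7A, a GPI-anchored semaphorin, fell by 0.90 in parental cells, 0.80 in the IGF2BP3 knockout and 0.56 in the IGF2BP2 knockout (adjusted p 0.00236, 2.88e-06 and 0.00898). SEMA4B thus went from 31.5 ± 1.88 CPM (SD, n = 4) in parental DMSO libraries to 17.5 ± 0.491 CPM (SD, n = 4) in tunicamycin. Of the 3 other plexins tested, 1 was called in parental cells and 1 in the IGF2BP2 knockout, PLXNB1 both times and lower (named after its value was seen).

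Among 9 co-receptors and VEGF genes tested of 15 listed, tunicamycin called 3, 3 and 4, of which 1, 1 and 2 were higher. These are 33.3%, 33.3% and 44.4% of those tested, not far from the 25.9%, 32% and 38.2% of all genes. VEGFA, the angiogenic ligand that shares NRP1 with SEMA3A, rose by 1.41, 1.33 and 1.37 log2 units (SE 0.0452, 0.0484 and 0.0463, adjusted p at most 1.94e-08). It went from 46.7 ± 2.10 to 124 ± 5.72 CPM in parental libraries (SD, n = 4 each). Of 28 genes that act downstream of plexins 27 were tested, and 7, 8 and 11 were called, with 3, 4 and 7 higher. The shares of 25.9%, 29.6% and 40.7% are those of all genes to within a few points (25.9%, 32% and 38.2%). MICAL2, an actin-oxidising enzyme, rose by 0.90, 0.80 and 0.88, and FYN, a kinase that acts on A-type plexins, rose by 1.00, 0.94 and 0.89. The collapsin response gene DPYSL5 fell by 0.50, 0.39 and 0.69 (adjusted p 0.00212, 0.000524 and 3.88e-06).

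Between genotypes these 52 genes gave few calls, as did all genes tested. The IGF2BP3 knockout called 1 in DMSO, FARP1, an exchange factor bound by plexins (-0.22, SE 0.0508, adjusted p 0.0484), and 1 in tunicamycin, MICAL2 (-0.33, SE 0.0624, adjusted p 0.0319). The 1 call is 1.92% of the 52 in each treatment, beside 1.61% of all genes in DMSO and 0.718% in tunicamycin. The IGF2BP2 knockout called 0 in either treatment, beside 0.0137% of all genes in DMSO and 0.00694% in tunicamycin. Clones differed in 11 of the 52 genes within the IGF2BP3 knockout (21.2%, beside 7.05% of all genes) and in 18 within the IGF2BP2 knockout (34.6%, beside 24.6%), with DPYSL3 and SEMA7A among those in both.

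Genes whose levels followed SEMA3A most closely were sought among 10207 genes with a mean count of at least 100, by Pearson's r of log2 CPM over the 32 libraries of 8 lines. The libraries of a line are not independent, and the 5 highest were picked by this measure. PDLIM5, a cytoskeletal adaptor, had r = 0.95, MPP7 0.90, EPS8 0.90, NR2F1 0.88 and KLF12 0.88. PDLIM5 was at 270 and 271 CPM in the parental samples, at 124 to 153 CPM in the IGF2BP3 knockout clones, and at 246, 154 and 370 CPM in B7, F6 and G6. It thus shared with SEMA3A the low F6 and the high G6, over a much smaller range. In B7 it was below the parental samples, where SEMA3A was above them. The lowest were CDC42BPG at -0.87, ADI1 at -0.85 and HPSE at -0.84. Of the receptors, PLXNB2 had r = -0.67, PLXND1 0.30, NRP1 0.19 and PLXNA1 0.02.

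The genes near SEMA3A were examined because 3 other class 3 semaphorins lie on the same stretch of chromosome 7. Of 92 annotated genes within 5 Mb, 15 had a mean count of at least 10. Their median log2 difference from parental cells was between -0.02 and 0.13 in each of the 6 clones. SEMA3E, 0.307 Mb away, differed by -0.46 to 0.61, and PCLO, 0.793 Mb away, by -0.16 to 0.18. SEMA3D, 0.503 Mb away, was the only one more than 1 log2 unit below parental, in A3 alone at -2.31. It was at -0.26 in D12, -0.86 in E4, -0.22 in B7, -0.51 in F6 and 0.40 in G6. Its mean count was only 13.7, but it was among the genes called as differing between clones in both knockouts. Whether its level and that of SEMA3A are linked was not tested. None of the 15 was more than 1 above. The level of SEMA3A itself was -4.78, -5.57 and -3.93 from parental in A3, D12 and E4, and 0.90, -2.86 and 1.66 in B7, F6 and G6.

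**Figure D4:**
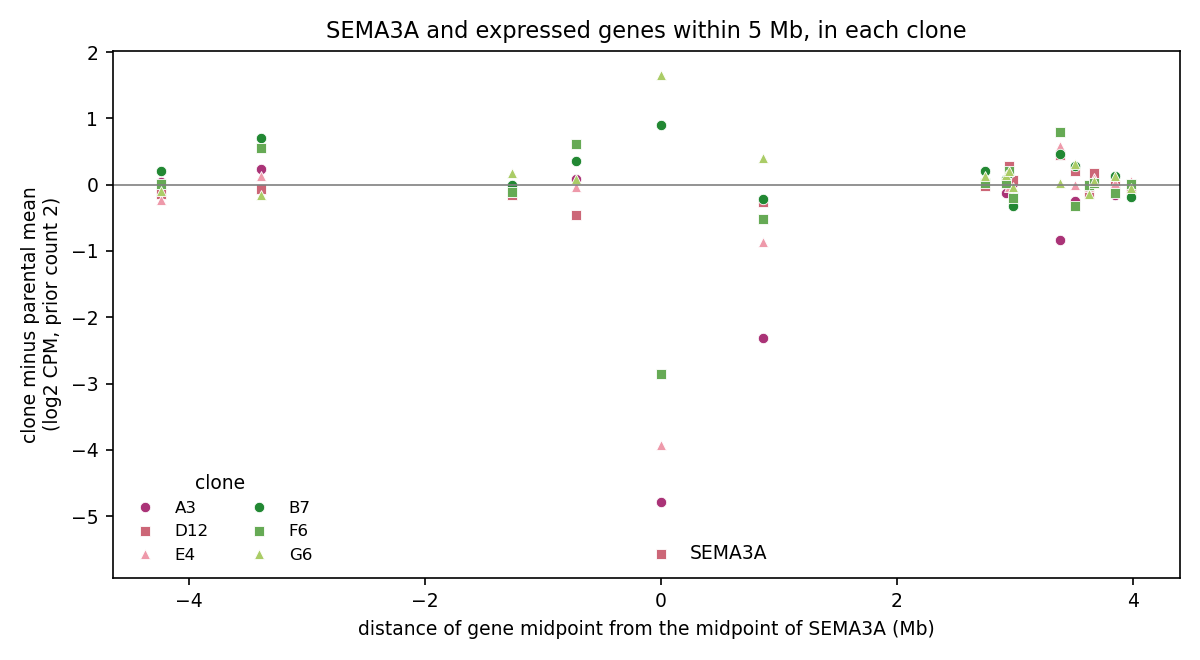
Clone minus parental mean (log2 CPM, prior count 2) for SEMA3A and the 15 counted genes within 5 Mb, against the distance between gene midpoints in Mb, with a symbol for each clone. SEMA3A spans -5.57 to 1.66, and its neighbours stay within 1 of 0 apart from SEMA3D in A3 at -2.31.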

How the data were processed

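The deposited table holds raw counts per gene for the 32 libraries. Per the labels' protocols, poly(A) RNA was made into directional libraries and sequenced as paired reads. Per the submitters' processing notes, STAR 2.7.5c and hg38 were used. The counting tool, annotation and strand setting are not given in the sources used here. Members and gene lists were chosen with earlier results of these data known.

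Each comparison was fitted with edgeR 4.0.16 in R 4.3.3 to the libraries of its groups (TMM, filterByExpr, quasi-likelihood test, Benjamini-Hochberg adjustment over all genes tested, threshold 0.05). Treatment and interaction fits had the line as a term, and fits of lines had treatment. The SE is the one implied by the F statistic, and 95% intervals are normal intervals from it. SEMA3A was left out of tests between genotypes and between clones. Log2 CPM used a prior count of 2. Total counts of 16651438 to 24913021 per library set the precision. Scripts were tested on simulated data.

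Alternatives were DESeq2 1.42.0, its size factors in edgeR, no filter, a mean CPM of at least 1, the replicate number as a block, counts summed per line, all 32 libraries in one fit, and leaving out the G6 control libraries or any clone or library. All 10 members are named; of the other lists, up to 3 called genes in each direction with a mean count of at least 100; of genes like SEMA3A, the 5 highest and 3 lowest; and of neighbours, at most 4, nearest first. Positions and lengths come from GENCODE release 29, and promoter sequences from RefSeq (GRCh38.p14).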

Additional observations from a re-analysis of the deposited data

Results flagged for a closer look

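NRP2 in the IGF2BP3 knockout in tunicamycin had 1 library far from the other 5: A3 replicate 2 was at 0.179 CPM, and the next lowest library was at 0.433 CPM. It was the only such library in 60 groups of values examined, and chance alone flags about 1 in 20 groups. NRP2 had 55 counts in that group together, so the values rest on few reads.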

How the results depend on the processing

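The count of 4 genes called in tunicamycin stayed within 1.5 times under each alternative run in parental cells and in the IGF2BP2 knockout. In the IGF2BP3 knockout it was 2 without D12 and 2 to 3 over the clones left out. The 2 calls of the IGF2BP3 knockout in DMSO became 1 with DESeq2 size factors in edgeR and 1 with no filter on low counts, 0 with counts summed per line and 0 with all 32 libraries in one fit, and 0 to 1 with a clone or parental library left out. In tunicamycin its 0 calls became 2 with DESeq2, 1 with no filter and 0 to 1 with a clone or library left out. The 0 calls of the IGF2BP2 knockout became 2 without the G6 control libraries in DMSO, 0 to 2 with a clone or library left out in DMSO, and 0 to 1 in tunicamycin. Clones of the IGF2BP3 knockout differed in 1 to 2 genes with a library left out. The causes were not tested, apart from the smaller number of samples that leaving libraries out or summing them gives by construction.

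Same-numbered libraries deviated together, with correlations of 0.0642 to 0.678 (median 0.475) over 120 pairs of line and treatment; 118 were above 0.1, and the criterion for pairing asked for all. With a replicate block, the IGF2BP3 knockout against parental cells in tunicamycin called 1 gene (NRP1) in place of 0. The clones of this knockout differed in 3 in place of 1. The block changed 1 other call, that of PLXNA3 for tunicamycin against DMSO within the IGF2BP2 knockout.

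Of 664 log2 values of single genes under alternatives that used both replicate numbers, 29 changed sign, as did 7 of 112 values within 1 replicate number. The widest of the 7 was SEMA3A for tunicamycin against DMSO in the IGF2BP3 knockout (-0.03 pooled, 0.11 within replicate number 2). None of the changes of sign was of a gene called in its comparison. Of SEMA3A against parental cells in the IGF2BP2 knockout in DMSO (0.69), the value was -0.06 without G6 or its control libraries, and -0.06 to 1.24 over the samples left out. The other changes of sign were of log2 values near 0. For tunicamycin against DMSO, the change of SEMA3A with a sample left out ran from -0.12 to 0.06 in the IGF2BP3 knockout. In the IGF2BP2 knockout it ran from -0.06 to 0.03. There it was 0.01 with DESeq2, 0.01 with its size factors, 0.01 at a mean CPM of at least 1 and 0.01 with the block. The change of SEMA3C in tunicamycin ran from -0.04 to 0.01 in the IGF2BP2 knockout. That of PLXNB2 was 0.0 with DESeq2 and with its size factors in parental cells and in the IGF2BP3 knockout, where it ran from -0.02 to 0.01. Against parental cells in tunicamycin, PLXNA1 ran from -0.03 to 0.08 and PLXND1 from -0.06 to 0.04 in the IGF2BP3 knockout; in the IGF2BP2 knockout SEMA3F ran from 0.0 to 0.14, PLXNA1 from -0.02 to 0.08, PLXNA3 from -0.04 to 0.11 and PLXND1 from -0.08 to 0.17. In DMSO in the IGF2BP2 knockout SEMA3F ran from -0.01 to 0.13, PLXNA1 from -0.07 to 0.0 and PLXND1 from -0.19 to 0.06; without the G6 control libraries PLXNA1 was 0.0 and PLXND1 0.02. Depth limits NRP2 and PLXNA2, which had under 10 counts per library on average.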
